A study of Mus musculus with 6 samples.

Results

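STAT factors and their feedback inhibitors were examined in the spleen as 9 genes: Stat2, Stat3, Stat4, Stat5a, Stat5b, Stat6, Socs1, Socs3 and Cish. The genes were chosen by name, with earlier results of these data known. All 9 were found among the 47729 genes of the count table and passed the filter on low counts, which left 15330 genes for testing. RNA-seq libraries came from spleens of 3 female NOD.B10 (NOD.B10Sn-H2b/J) mice, a strain that develops a Sjögren's syndrome-like disease, and 3 female BL/10 (C57BL10/SnJ) mice, the healthy comparison strain. No transgene, deletion or treatment was stated for either group. NOD.B10 mice carry the H2b haplotype of the MHC on the NOD background, so the strains differ at many loci and a strain difference here cannot be told apart from a difference in disease. The ages in the labels were 26 weeks for the NOD.B10 libraries and for BL/10 replicate 1, and 36 weeks for BL/10 replicates 2 and 3, whereas the methods give matched ages of 26 weeks.

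The sample labels contradicted each other on strain. The descriptions and the columns of the table gave the strain used here, whereas the titles and strain fields gave the opposite strain for all 6 libraries, and each direction below would turn around under the titles. Ifi202b, an interferon-inducible gene known to be expressed in NOD mice and nearly silent in C57BL mice, was counted 838, 624 and 485 times in the libraries called NOD.B10, and 2, 0 and 0 times in those called BL/10. The total counts were between 15662712 and 18298451 per library. Markers of splenic B cells, T cells, macrophages and erythroid cells were detected in every library. Other cell markers moved with strain. The summed level of 12 T cell markers was 926 to 1200 CPM (counts corrected for library size with TMM factors) in NOD.B10 and 469 to 641 CPM in BL/10, and that of 10 neutrophil markers was 2140 to 2480 CPM in NOD.B10 and 6150 to 12900 CPM in BL/10. BL/10 replicate 1 stood apart, with 14100 CPM of 14 pancreas acinar markers against 22.4 to 31.5 CPM in NOD.B10 and 113 and 2160 CPM in the other BL/10 libraries. The 8 B cell markers summed to 5050, 2870 and 3100 CPM in BL/10 replicates 1, 2 and 3 and to 3810 to 4930 CPM in NOD.B10. For the 8 erythroid markers these sums were 28900, 57100 and 66300 CPM in BL/10 and 26300 to 47000 CPM in NOD.B10. The RNA is of whole spleen, in which fewer cells of a type and less RNA per cell cannot be told apart. Reads of both strains were aligned to the same reference genome (GRCm38), and whether they aligned equally well was not tested. Less RNA of a gene and fewer aligned reads thus cannot be told apart either. Hba-a2 had a mean of 7.28 CPM in NOD.B10 and 3550 CPM in BL/10, whereas Hba-a1 had 5890 and 4880 CPM. These hemoglobin genes were named after their values were seen.

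STATs are latent transcription factors. A cytokine that binds its receptor activates receptor-bound Janus kinases (JAKs), which phosphorylate STAT proteins, and the phosphorylated dimers enter the nucleus and switch on target genes. STAT2 acts with IRF9 downstream of type I interferon, STAT3 downstream of IL-6, IL-10 and IL-21, STAT4 downstream of IL-12, STAT5A and STAT5B downstream of IL-2, IL-7 and related cytokines, and STAT6 downstream of IL-4 and IL-13. Among the targets are the SOCS proteins and CIS (encoded by Cish), which bind the receptors or JAKs and end the signal. SOCS1 is known for curbing interferon signals, SOCS3 for curbing gp130 receptors, and CIS as a target of STAT5.

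The promoter windows of the 3 feedback genes are shown because STAT-binding elements in them are the textbook route of the feedback loop. Windows of 300 bases around RefSeq start sites (250 bases before to 50 after, build GRCm38.p6) were searched on both strands for the STAT dimer element (GAS, TTCNNNGAA), for its longer form (TTCNNNNGAA) and for the interferon-stimulated response element (ISRE, GAAANNGAAA). All 9 genes had a window, with 12 windows in total. Capitals mark the matches. The Cish window is chr9:107296409-107296708 (plus strand), the Socs3 window is chr11:117969317-117969616 (minus strand) and the Socs1 window is chr16:10785487-10785786 (minus strand).
Cish: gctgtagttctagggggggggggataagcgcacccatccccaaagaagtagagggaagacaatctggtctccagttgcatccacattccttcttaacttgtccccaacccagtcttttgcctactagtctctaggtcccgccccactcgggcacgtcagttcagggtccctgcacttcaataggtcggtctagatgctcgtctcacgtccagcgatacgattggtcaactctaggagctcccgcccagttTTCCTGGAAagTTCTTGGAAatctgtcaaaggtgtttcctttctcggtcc
Socs3: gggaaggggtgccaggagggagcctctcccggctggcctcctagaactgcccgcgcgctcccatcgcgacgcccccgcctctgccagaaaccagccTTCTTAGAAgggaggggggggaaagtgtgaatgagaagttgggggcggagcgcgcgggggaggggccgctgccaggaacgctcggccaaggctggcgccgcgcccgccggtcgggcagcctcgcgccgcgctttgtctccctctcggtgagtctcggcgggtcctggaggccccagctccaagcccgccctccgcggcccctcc
Socs1: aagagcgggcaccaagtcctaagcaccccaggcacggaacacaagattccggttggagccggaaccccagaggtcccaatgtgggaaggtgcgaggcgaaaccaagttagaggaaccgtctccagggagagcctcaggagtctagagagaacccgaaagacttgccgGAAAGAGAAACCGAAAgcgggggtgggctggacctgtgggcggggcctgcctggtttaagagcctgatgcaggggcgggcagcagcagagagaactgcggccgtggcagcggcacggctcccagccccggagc

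The Cish window held GAS matches TTCCTGGAA and TTCTTGGAA, which begin 0 and 11 bases after the start site. The Socs3 window held 1 GAS match, TTCTTAGAA, 154 bases before a RefSeq start that lies upstream of the start of the GENCODE coding transcript. Of all 32851 windows, 8.3% held a GAS match. The Socs1 window held 2 ISRE matches, GAAAGAGAAA and GAAACCGAAA, which overlap each other and begin 83 and 77 bases before the start. ISRE matches were found in 3.44% of all windows, and among the STAT genes in windows of Stat2 and Stat4. The longer GAS form, in 6.95% of all windows, was found for Stat2 only among the 9 genes. These matches describe letters in the windows and do not show that a factor binds there.

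Of the 9 genes, Socs3, Stat4 and Stat3 (3 genes) were higher in NOD.B10, and 0 were lower, at a threshold of 0.05 on the adjusted p of the quasi-likelihood test in edgeR. Over all genes tested, 17.3% passed this threshold in either direction, 9.11% as higher in NOD.B10 and 8.22% as lower. Among the genes with lower values, 1 (Cish) passed at an unadjusted p under 0.05 in edgeR, and 1 (Cish) passed in DESeq2. The largest difference was that of Socs3, with a fold of 2.00, and the fold was 1.67 for Stat4 and 1.41 for Stat3. At an unadjusted p under 0.05 in edgeR, 6 of the 9 genes passed, the added ones being Stat5b, Stat6 and Cish, where 34.2% of all genes tested did. Cish was the gene with its values the other way, at 0.648 of the BL/10 level. The libraries of the strains did not overlap for 7 of the 9 genes, with NOD.B10 above for 6 and below for Cish, where 38% of all genes tested did not overlap. The median log2 fold change of the 9 genes was 0.25, where that of all genes was 0.00.

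**Figure D1:**
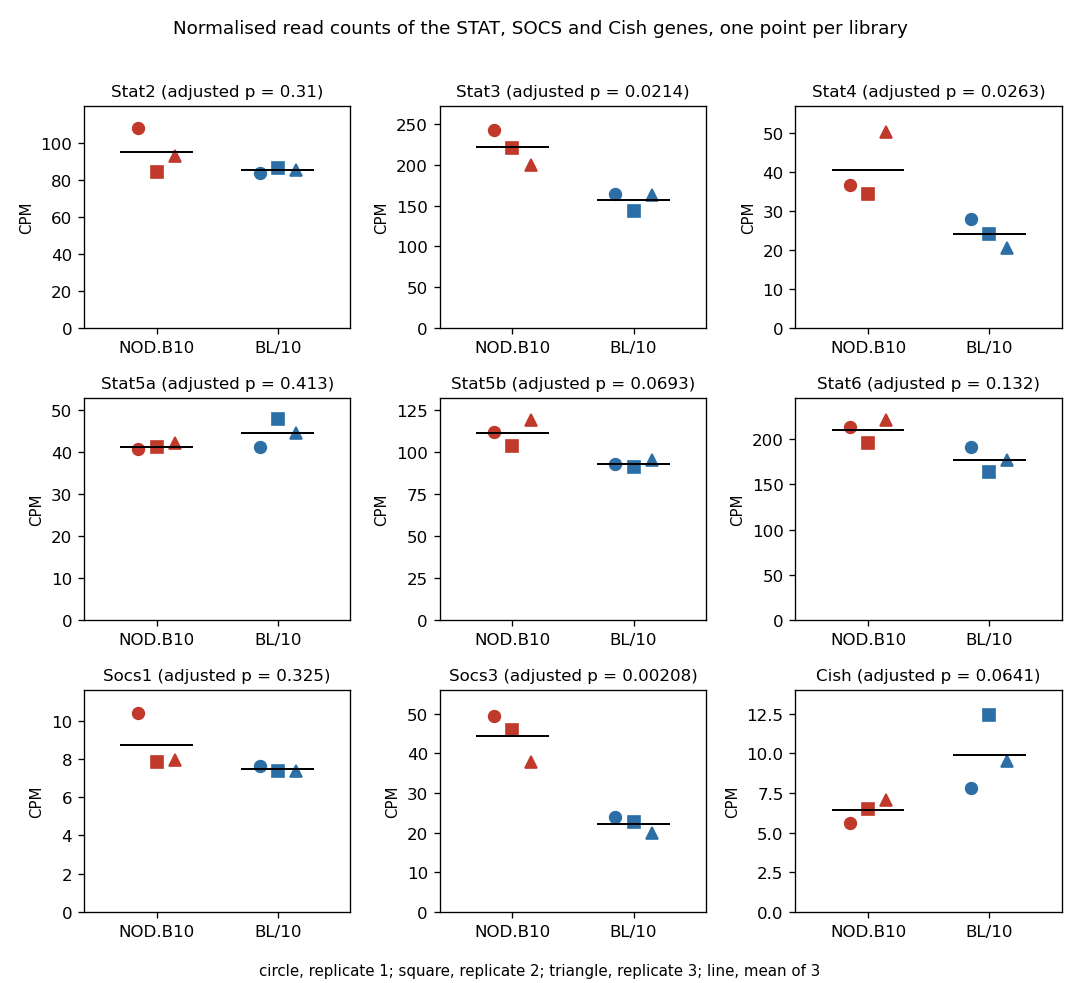
Normalised read counts (CPM, linear axes from 0) of the 9 genes in each NOD.B10 (red) and BL/10 (blue) library, with the mean of 3 as a line and the adjusted p from edgeR in each title. NOD.B10 libraries lie above all BL/10 libraries for Socs3, Stat3, Stat4, Stat5b, Stat6 and Socs1 and below them for Cish, and they overlap for Stat2 and Stat5a.

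Among the feedback inhibitors, Socs3 (ENSMUSG00000053113, chromosome 11 from 117966079 to 117970047 of GRCm38, minus strand) had 49.5, 45.8 and 37.8 CPM in NOD.B10 replicates 1, 2 and 3 and 23.8, 22.6 and 19.9 CPM in BL/10 replicates 1, 2 and 3. The lowest NOD.B10 library was well above the highest BL/10 library. Mean levels were 44.3 ± 5.95 CPM for NOD.B10 and 22.1 ± 1.99 CPM for BL/10 (SD, n = 3 each), which gave a log2 fold change of 1.00 (SE 0.13, 95% interval 0.71 to 1.29, adjusted p = 0.00208 from edgeR). Its absolute fold change was larger than that of 90.6% of all genes tested. Socs3 was the only one of the 9 genes past the threshold under all 16 alternative settings. With 1 library left out, its log2 fold change was between 0.92 and 1.11. With age as a term, which rests the strain contrast on BL/10 replicate 1 as the single BL/10 library of 26 weeks, it was 0.89 (SE 0.18, adjusted p = 0.0319 from edgeR). Socs3 is also an early response gene. The summed level of 8 immediate early genes was 138 to 171 CPM in NOD.B10 and 158 to 180 CPM in BL/10. In this list only Ier2 had a positive log2 fold change, and the median of the 8 genes was -0.24. The log2 fold change was 0.29 for Ier2 and -0.94 for Atf3 (adjusted p = 0.0872 and 0.0176 from edgeR), both named after their values were seen. The part of these genes in the Socs3 level was not tested.

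Socs1 (ENSMUSG00000038037, chromosome 16 from 10783808 to 10785536), the inhibitor of interferon signals, had 10.4, 7.86 and 7.92 CPM in NOD.B10 and 7.6, 7.38 and 7.39 CPM in BL/10. NOD.B10 replicate 1 was the high library, and the others were close to the BL/10 level. The log2 fold change was 0.23 (SE 0.15, 95% interval -0.12 to 0.58, adjusted p = 0.325 from edgeR), and without NOD.B10 replicate 1 it was 0.08 (adjusted p = 0.767 from edgeR).

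Cish (ENSMUSG00000032578, chromosome 9 from 107296026 to 107302784) encodes CIS, which binds STAT5 docking sites on cytokine receptors. It was counted 94, 106 and 126 times in NOD.B10 libraries and 144, 185 and 168 times in BL/10 libraries, or 5.62, 6.51 and 7.08 CPM against 7.82, 12.4 and 9.55 CPM. All NOD.B10 libraries were below all BL/10 libraries, with BL/10 replicate 1 the nearest. The means were 6.4 ± 0.735 CPM (SD, n = 3) and 9.92 ± 2.32 CPM (SD, n = 3), a log2 fold change of -0.63 (SE 0.20, 95% interval -1.08 to -0.17), and the adjusted p of 0.0641 from edgeR did not pass the threshold. The call depended on the test and the libraries. DESeq2 gave an adjusted p of 0.0291, and without BL/10 replicate 1 edgeR gave a log2 fold change of -0.78 (adjusted p = 0.0192). With age as a term, the log2 fold change was -0.29 (SE 0.23, adjusted p = 0.565 from edgeR). Its exons share 261 and 479 bases (4.07% and 7.46%) with the antisense genes Gm17040 and Gm17041, which had at most 9 counts in a library. Counting ignored strand, so reads that fall on these bases count for neither gene in any library.

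Of the STAT factors, Stat4 (ENSMUSG00000062939, chromosome 1 from 51987148 to 52107189), the mediator of IL-12 signals in T and NK cells, had 36.8, 34.4 and 50.4 CPM in NOD.B10 and 28.1, 24.2 and 20.5 CPM in BL/10. The strains did not overlap, and NOD.B10 replicate 3 was the highest library. Mean levels of 40.5 ± 8.62 CPM (SD, n = 3) and 24.3 ± 3.78 CPM (SD, n = 3) gave a log2 fold change of 0.74 (SE 0.17, 95% interval 0.34 to 1.15, adjusted p = 0.0263 from edgeR). The adjusted p in edgeR was 0.0609 and 0.0654 without NOD.B10 replicates 1 and 3, and 0.0719 and 0.0832 without BL/10 replicates 2 and 3. With age as a term, the log2 fold change was 0.53 (SE 0.23, adjusted p = 0.27 from edgeR). A long overlap with Gm28177 on the same strand covers 26.7% of the Stat4 exon bases, and reads that fall on it count for neither gene in any library.

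Most T cell markers moved with Stat4. Of the 12 T cell markers, 9 were higher in NOD.B10 past the threshold in edgeR. Cd2, Cd8a and Cd8b1 did not pass (log2 fold changes 0.12, 0.16 and -0.4) and are named after their values were seen. The median log2 fold change of the 12 was 1.29, above that of Stat4. Of 8 NK cell markers, 1 was higher and 1 lower, with a median of 0.01. Per 1000 CPM of the T cell markers, a scale chosen after the values were seen, Stat4 was at 36.7, 37.1 and 42.1 CPM in NOD.B10 and at 43.8, 47 and 43.8 CPM in BL/10. On this scale all NOD.B10 libraries were below all BL/10 libraries, the opposite of the order in CPM (two-sided exact permutation test, p = 0.1, the smallest that 3 libraries against 3 can give). The direction for Stat4 thus depends on whether the level is set against all reads or against T cell transcripts.

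Stat3 (ENSMUSG00000004040, chromosome 11 from 100885098 to 100939540), the factor used by IL-6 family receptors, had 243, 221 and 200 CPM in NOD.B10 and 165, 143 and 163 CPM in BL/10. All NOD.B10 libraries were above all BL/10 libraries. The means of 222 ± 21.3 CPM (SD, n = 3) and 157 ± 11.9 CPM (SD, n = 3) gave a log2 fold change of 0.50 (SE 0.11, 95% interval 0.24 to 0.75, adjusted p = 0.0214 from edgeR). This call was close to the threshold. The adjusted p in edgeR was 0.095 and 0.0564 without NOD.B10 replicates 1 and 2, and 0.0728 and 0.0527 without BL/10 replicates 2 and 3. The log2 fold change itself stayed between 0.43 and 0.57 in these fits, and with age as a term it was 0.43 (SE 0.15, adjusted p = 0.185 from edgeR). The lower level of neutrophil markers in NOD.B10, of which 10 of 10 were lower past the threshold in edgeR with a median log2 fold change of -1.96, ran opposite to Stat3 and Socs3, and its part in their values was not tested.

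**Figure D2:**
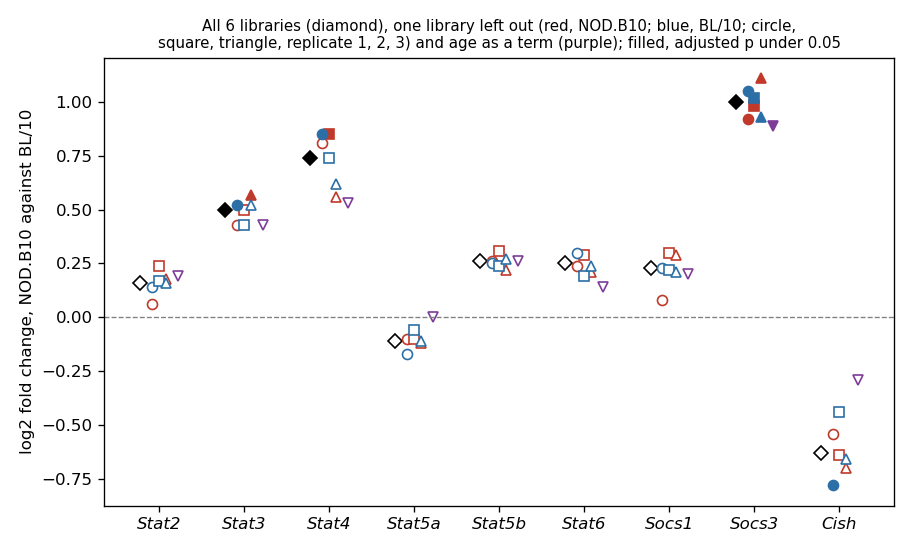
Log2 fold change of each of the 9 genes (NOD.B10 against BL/10) with all 6 libraries, with each library left out in turn and with age as a term, filled where the adjusted p from edgeR is under 0.05. Socs3 is filled throughout, Stat3 and Stat4 are filled in some fits only, and Cish is filled only without BL/10 replicate 1.

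Stat5a and Stat5b are near-identical paralogs that lie next to each other on chromosome 11, with 8626 bases between them. Stat5b (ENSMUSG00000020919, from 100780731 to 100850724) had 112, 104 and 119 CPM in NOD.B10 and 93.1, 91.1 and 95.2 CPM in BL/10. These libraries did not overlap, and the log2 fold change of 0.26 (SE 0.08, 95% interval 0.07 to 0.46) had an adjusted p of 0.0693 from edgeR. Stat5a (ENSMUSG00000004043, from 100859351 to 100885169) had 40.8, 41.2 and 42.1 CPM in NOD.B10 and 41.3, 47.9 and 44.6 CPM in BL/10, which overlapped. Its log2 fold change was -0.11 (SE 0.09, 95% interval -0.31 to 0.09, adjusted p = 0.413 from edgeR), so the interval leaves out a change as large as that of Stat3 in either direction.

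The balance of the pair was compared within each library, where depth cancels. Stat5b made up 78%, 76.4% and 78.4% of the Stat5a and Stat5b reads per kilobase in the NOD.B10 libraries, against 74.4%, 71% and 73.3% in the BL/10 libraries. The share was higher in all NOD.B10 libraries, by 4.72 percentage points between the means of 77.6% ± 1.05 (SD, n = 3) and 72.9% ± 1.72 (SD, n = 3), with p = 0.1 in a two-sided exact permutation test, the smallest that 3 libraries against 3 can give. Reads of 50 bases cannot always separate the paralogs. Of the distinct 50-base stretches in annotated transcripts, 608 are the same in both genes, which is 8.21% of those of Stat5a and 11% of those of Stat5b, and reads from them were not counted for either gene. Stat5a also overlaps Stat3 at the 3′ ends, on the opposite strand, by 72 exon bases.

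Cish was then set against the transcripts of its activators. On the log2 scale, the RPKM of Cish relative to the sum of Stat5a and Stat5b was -4.89, -4.6 and -4.64 in the NOD.B10 libraries, against -4.21, -3.58 and -3.98 in the BL/10 libraries. The ratio was lower in all NOD.B10 libraries, with means of -4.71 ± 0.16 (SD, n = 3) and -3.92 ± 0.319 (SD, n = 3), and p = 0.1 in the same exact permutation test. The RPKM of Cish relative to that of the STAT5 genes was thus lower in every NOD.B10 library. This ratio includes the log2 fold change of Cish itself. That change was -0.63, did not pass the threshold in edgeR and was -0.29 with age as a term. Socs3 and Stat3 were both higher as single genes, and no ratio of the 2 was computed.

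Stat6 (ENSMUSG00000002147, chromosome 10 from 127642986 to 127660957), the factor for IL-4 and IL-13, had 213, 196 and 221 CPM in NOD.B10 and 191, 163 and 177 CPM in BL/10. The libraries did not overlap, but the gap was small, and the log2 fold change of 0.25 (SE 0.10, 95% interval 0.01 to 0.48) had an adjusted p of 0.132 from edgeR. Stat2 (ENSMUSG00000040033, chromosome 10 from 128270576 to 128292849), which acts in type I interferon signals, had 108, 84.4 and 92.8 CPM in NOD.B10 and 83.5, 86.1 and 85.5 CPM in BL/10. Its libraries overlapped, and the spread was wider in NOD.B10 than in BL/10 (SD 11.9 against 1.37 CPM, n = 3 each). The log2 fold change was 0.16 (SE 0.10, 95% interval -0.08 to 0.40, adjusted p = 0.31 from edgeR).

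Levels can be compared between genes only per length, and were therefore set out as RPKM, that is, CPM per kilobase of exon. Stat6 was the highest of the 9 genes in both strains, at 47.7 ± 2.83 RPKM (SD, n = 3) in NOD.B10 and 40.2 ± 3.17 RPKM (SD, n = 3) in BL/10. Cish was the lowest, at 0.998 ± 0.114 RPKM and 1.55 ± 0.361 RPKM (SD, n = 3 each). In NOD.B10, Stat6 was followed by Stat3, Stat2 and Stat5b (23.3, 21.6 and 20.2 RPKM), whose neighbours in the order overlapped, and then by Socs3, Stat4, Socs1 and Stat5a (15.3, 10.5, 7.16 and 5.8 RPKM), which did not overlap with their neighbours. In BL/10, Stat2 (19.3 RPKM) was above Stat5b and Stat3, which overlapped at 16.8 and 16.5 RPKM. Below them, Socs3, Stat4, Stat5a and Socs1 had means between 7.65 and 6.11 RPKM. Among these, Socs3 overlapped with Stat4, Stat4 with Stat5a and Stat5a with Socs1, whereas Socs3 did not overlap with Stat5a or Socs1. Stat5a, Stat5b and Cish share 8.52%, 11% and 9.35% of their distinct 50-base stretches with other genes. Their lengths were not adjusted for this. The place of Stat4 depends on the length used, since reads on bases shared with Gm28177 were not counted. Over the 2839 exon bases that Stat4 shares with no other gene, a length chosen after the values were seen, Stat4 was at 12.1 to 17.8 RPKM in NOD.B10 and 7.23 to 9.89 RPKM in BL/10. On that length it overlapped with Socs3 in both strains (13.1 to 17.1 RPKM in NOD.B10 and 6.9 to 8.25 RPKM in BL/10).

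**Figure D3:**
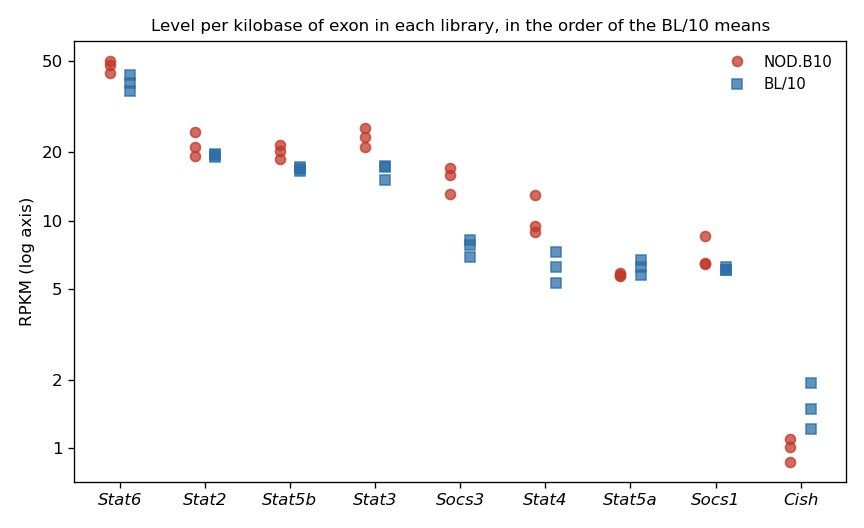
RPKM (log axis) of the 9 genes in each NOD.B10 (red circles) and BL/10 (blue squares) library, ordered by the BL/10 mean. Stat6 is highest and Cish lowest in both strains, and Socs3 overlaps with Stat4 in BL/10 and lies between Stat4 and Stat5b in NOD.B10, with Stat4 set over its full exon length.

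Other genes whose profile over the 6 libraries was closest to that of a gene past the threshold were listed among 11551 genes with a mean of at least 5 CPM. Closeness was the root mean square difference of centred log2 CPM. Pim2 was closest to Socs3 (0.04 on the log2 scale), followed by Sh2b2 (0.11) and Tram2 (0.13). Stat4 was closest to St8sia6 (0.06), Camk4 (0.06) and Ikbke (0.07), and Stat3 to Slc36a4 (0.04), AU020206 (0.05) and Acp5 (0.06). This likeness rests on 6 libraries that fall into 2 strains, so any gene with a like strain difference comes close.

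The rest of the JAK-STAT pathway was examined with lists chosen with earlier results of these data known. The lists share some genes, such as Usp18, Il12rb2 and Il4ra, and together hold 128 genes outside the 9, of which 111 were tested. In edgeR 20 of these were higher and 16 lower in NOD.B10 past the threshold, where 9.11% and 8.22% of all genes tested were. The median log2 fold change of the 111 was 0.04. With age as a term, 10 of these genes passed. Of the pathway genes named below, Lepr, Il6st, Il12b, Il15, Oas1a, Oasl1 and Sh2b3 kept their call in that fit, and the others past the threshold lost theirs. The kinases were considered first. Of 4 JAK genes, 1 was higher. Jak3, the kinase of common gamma chain receptors in lymphocytes, had 64.5, 60.6 and 62.8 CPM in NOD.B10 and 47.1, 39 and 39.7 CPM in BL/10, a log2 fold change of 0.58 (SE 0.10, adjusted p = 0.00736 from edgeR), and it passed with each library left out but not with age as a term (0.41, adjusted p = 0.0805). Like Stat4, Jak3 was lower in NOD.B10 when set per 1000 CPM of T cell markers, at 60.7 ± 7.21 against 78 ± 5.86 CPM (SD, n = 3 each, two-sided exact permutation p = 0.1). Jak1, which pairs with most cytokine receptors, had a log2 fold change of 0.30 (SE 0.11, adjusted p = 0.0937 from edgeR). Jak2 and Tyk2 had log2 fold changes of 0.04 and 0.01 (SE 0.09 and 0.08), and their libraries overlapped.

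**Figure D4:**
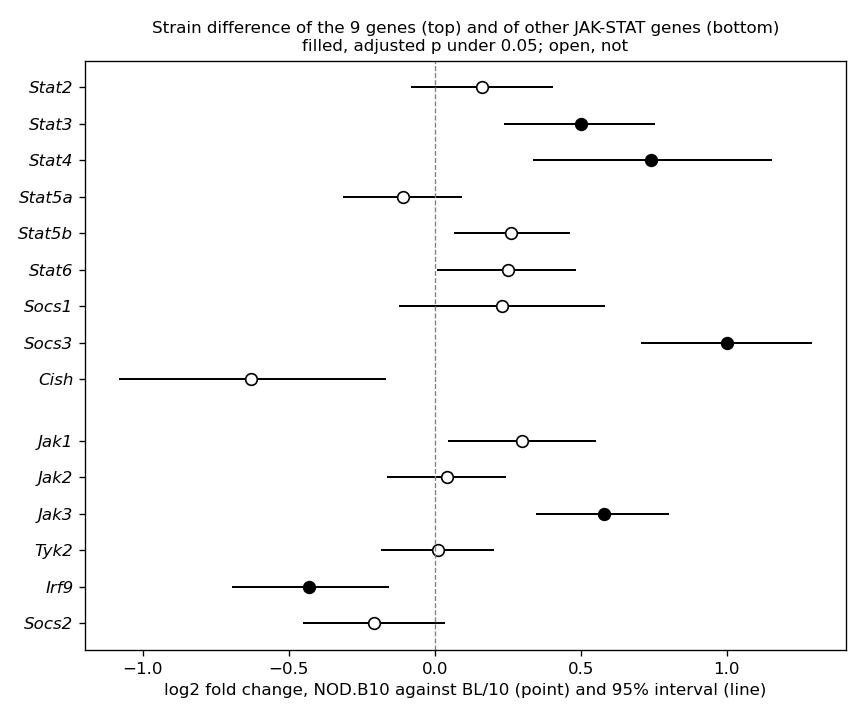
Log2 fold change (NOD.B10 against BL/10) with its 95% interval for the 9 genes (top) and for other JAK-STAT genes (bottom), filled where the adjusted p from edgeR is under 0.05. Socs3, Stat4, Stat3 and Jak3 are filled and to the right of 0, and Irf9 is filled and to the left.

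Irf9, the DNA-binding subunit of the interferon complex, had 104, 93.8 and 110 CPM in NOD.B10 and 121, 155 and 138 CPM in BL/10, a log2 fold change of -0.43 (SE 0.11, adjusted p = 0.0405 from edgeR). The call of Irf9 held in edgeR only without BL/10 replicate 1 (adjusted p = 0.00997) when libraries were left out, and otherwise the adjusted p was 0.079 without NOD.B10 replicate 3, 0.0806 without BL/10 replicate 3, 0.109 without BL/10 replicate 2, 0.111 without NOD.B10 replicate 2 and 0.127 without NOD.B10 replicate 1. The log2 fold change of Irf9 was -0.24 with age as a term (adjusted p = 0.381 from edgeR).

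Interferon-stimulated genes include the targets of STAT2 and IRF9. In edgeR 9 of 17 were lower in NOD.B10 and 2 higher, where 8.22% and 9.11% of all genes tested were. The median log2 fold change of the 17 was -1.02, while Stat2 itself did not pass the threshold. Isg15, a ubiquitin-like modifier, had 57, 46.5 and 38.5 CPM in NOD.B10 and 79.8, 234 and 213 CPM in BL/10, with BL/10 replicate 1 nearest to NOD.B10. Its log2 fold change was -1.89 (SE 0.37, adjusted p = 0.0137 from edgeR), and its adjusted p was 0.0654 without NOD.B10 replicate 3. The log2 fold change of Isg15 was -0.75 with age as a term (adjusted p = 0.0731 from edgeR). Oas1a and Oasl1, of the oligoadenylate synthetase family of viral RNA sensors, had log2 fold changes of -1.71 and -1.60 (SE 0.18 and 0.19) and passed the threshold in edgeR with each library left out and with age as a term. The higher genes were Irf1 and Gbp2 (log2 fold changes 0.42 and 0.96, SE 0.11 and 0.16, adjusted p = 0.039 and 0.0076 from edgeR), both known targets of interferon gamma, and named here after their values were seen. Gbp2 passed with each library left out but not with age as a term (0.89, adjusted p = 0.0896 from edgeR), whereas the adjusted p of Irf1 in edgeR was 0.144 and 0.0831 without NOD.B10 replicates 1 and 3, and 0.0927 and 0.107 without BL/10 replicates 2 and 3, and 0.32 with age as a term. The summed level of the 17 genes was 730 to 910 CPM in NOD.B10 and 829 CPM in BL/10 replicate 1, against 1600 and 1430 CPM in BL/10 replicates 2 and 3.

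The gp130 and IL-12 receptor family includes receptors that signal through STAT3 and STAT4. In edgeR 6 of its 10 tested genes were higher in NOD.B10 past the threshold, where 9.11% of all genes tested were. The median log2 fold change of the 10 was 0.51. Lepr, the leptin receptor, had 80.1, 66.3 and 60.7 CPM in NOD.B10 and 32.7, 31.7 and 35.7 CPM in BL/10, a log2 fold change of 1.05 (SE 0.12, adjusted p = 0.00132 from edgeR), and passed with each library left out and with age as a term (adjusted p = 0.0154). Il27ra, a subunit of the IL-27 receptor, had a log2 fold change of 0.91 (SE 0.16, adjusted p = 0.00914 from edgeR, and 0.102 with age as a term). Il12rb2, the signaling chain of the IL-12 receptor that activates STAT4, had 8.55, 7.37 and 6.86 CPM against 3.96, 4.22 and 4.77 CPM, a log2 fold change of 0.81 (SE 0.16, adjusted p = 0.0128 from edgeR, 0.0644 without NOD.B10 replicate 1, and 0.0692 with age as a term). The remaining genes past the threshold, named after their values were seen, were Il6st, which encodes gp130, Il6ra and Osmr, with log2 fold changes of 0.59, 0.55 and 0.48 (SE 0.11, 0.11 and 0.13, adjusted p = 0.0109, 0.0124 and 0.0419 from edgeR). Without NOD.B10 replicate 1, the adjusted p in edgeR was 0.0547 for Il6st and 0.058 for Il6ra, and Osmr passed only without NOD.B10 replicate 3 (adjusted p = 0.0326) and ranged up to 0.144 otherwise. The adjusted p in edgeR with age as a term was 0.0423 for Il6st, 0.0707 for Il6ra and 0.145 for Osmr.

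Of 10 common gamma chain and related receptors, 2 were higher. Il7r, the IL-7 receptor chain of naive and memory T cells, had 90, 70.8 and 158 CPM in NOD.B10 and 48.2, 54.7 and 54.2 CPM in BL/10, with a log2 fold change of 1.02 (SE 0.27, adjusted p = 0.0379 from edgeR). NOD.B10 replicate 3, the library with the highest Stat4, was also the highest for Il7r, and per 1000 CPM of T cell markers the strains overlapped (99.3 ± 28.9 against 99 ± 21.2 CPM, SD, n = 3 each). The call of Il7r held without NOD.B10 replicate 2 or 3 (adjusted p = 0.0174 and 0.0346 from edgeR), and the adjusted p was 0.0583 to 0.0971 without any other library and 0.18 with age as a term. Without NOD.B10 replicate 3, the log2 fold change of Il7r was 0.62. Il4ra, the receptor chain that recruits STAT6, had 186, 166 and 191 CPM against 151, 96.6 and 105 CPM, a log2 fold change of 0.62 (SE 0.17, adjusted p = 0.0441 from edgeR), which held only without BL/10 replicate 1 (adjusted p = 0.00179) and reached 0.134 otherwise. Il4ra had a log2 fold change of 0.26 with age as a term (adjusted p = 0.348 from edgeR). Of 7 interferon and IL-10 receptor genes, 0 passed the threshold in edgeR and 0 in DESeq2, 1 had an unadjusted p under 0.05 in edgeR, and the median log2 fold change was -0.03. Among 9 common beta chain and homodimeric receptors, Prlr was higher (log2 fold change 1.14, SE 0.23, adjusted p = 0.0139 from edgeR, and 0.111 with age as a term) at 2.86 and 1.28 CPM on average, and Csf2ra was lower (-0.39, SE 0.11, adjusted p = 0.0487, and 0.101 to 0.135 without any library other than BL/10 replicate 1). Csf2ra had a log2 fold change of -0.20 with age as a term (adjusted p = 0.455 from edgeR).

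Of 26 cytokine genes, 12 had enough counts to be tested, 1 being higher and 2 lower in NOD.B10. Il12b, the p40 chain shared by IL-12 and IL-23, had 1.2, 0.86 and 0.618 CPM in NOD.B10 and 6.52, 6.17 and 4.49 CPM in BL/10, a log2 fold change of -2.68 (SE 0.28, adjusted p = 0.000925 from edgeR). Il12b was lower where Stat4 and Il12rb2 were higher in CPM. Il12rb1, another IL-12 receptor chain and named after its values were seen, had a log2 fold change of 0.12 (SE 0.17, adjusted p = 0.663 from edgeR). Il15, a STAT5-activating cytokine, had 6.04, 5.47 and 5.62 CPM against 11.2, 11.2 and 10.4 CPM, a log2 fold change of -0.94 (SE 0.12, adjusted p = 0.00231 from edgeR). Il12b and Il15 passed with each library left out and with age as a term. Il7, the stromal cytokine that sustains T cells, was higher (log2 fold change 0.66, SE 0.13, adjusted p = 0.0146 from edgeR, 0.0672 without NOD.B10 replicate 1, and 0.178 with age as a term). Il6 was below the filter, with 7, 1 and 4 reads in the NOD.B10 libraries and 11, 8 and 15 reads in the BL/10 libraries, and Il2 had at most 5 counts in a library.

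The inhibitors outside the 9 genes were mixed. Of 5 other SOCS genes, Socs5 was higher, at 58.7, 54.6 and 56.1 CPM in NOD.B10 and 42.9, 35.1 and 38.6 CPM in BL/10 (log2 fold change 0.54, SE 0.10, adjusted p = 0.00936 from edgeR), and passed with each library left out but not with age as a term (0.40, adjusted p = 0.115). Socs2, like Cish a known target of STAT5, had 10.6, 10.9 and 10.6 CPM in NOD.B10 and 12.4, 11.9 and 12.8 CPM in BL/10, a log2 fold change of -0.21 (SE 0.10, adjusted p = 0.194 from edgeR). Of 12 PIAS, phosphatase and other inhibitor genes, 1 was higher and 2 were lower. Sh2b3, an adaptor that restrains JAK2, had 140, 127 and 147 CPM in NOD.B10 and 284, 223 and 270 CPM in BL/10, a log2 fold change of -0.91 (SE 0.12, adjusted p = 0.00271 from edgeR), which held with each library left out and with age as a term. Usp18, which blocks the type I interferon receptor, was lower (-1.02, SE 0.22, adjusted p = 0.0181 from edgeR) and lost the call without NOD.B10 replicate 1, 2 or 3 (0.0684, 0.0569 and 0.0594) and with age as a term (-0.52, adjusted p = 0.209). Cbl, a ubiquitin ligase, was higher (0.33, SE 0.09, adjusted p = 0.0365 from edgeR), and without any library other than BL/10 replicate 1 its adjusted p was 0.0584 to 0.148, and with age as a term 0.195.

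Lists of target genes were counted for the other STATs. Of 8 STAT5 targets other than Cish, 1 passed the threshold. This was Foxp3, the regulatory T cell factor, with 10.5, 13.9 and 16.1 CPM in NOD.B10 and 6.52, 5.43 and 4.83 CPM in BL/10 (log2 fold change 1.27, SE 0.20, adjusted p = 0.00488 from edgeR). Foxp3 did not pass with age as a term (1.05, adjusted p = 0.073 from edgeR), and its log2 fold change was close to the T cell marker median of 1.29, whose part in it was not tested. Of 11 STAT3 targets other than Socs3, 2 were higher, and the median log2 fold change was 0.40. These were Prdm1, the regulator of plasma cell differentiation (0.64, SE 0.12, adjusted p = 0.00968 from edgeR, and 0.126 with age as a term), and Batf (0.62, SE 0.16, adjusted p = 0.0363), whose call held only without BL/10 replicate 1 (0.00417) and whose adjusted p was 0.0714 to 0.129 otherwise. Batf had a log2 fold change of 0.30 with age as a term (adjusted p = 0.333 from edgeR). The summed level of 7 plasma cell markers, of which 5 were higher, was 3330 to 3840 CPM in NOD.B10 and 2110 to 2690 CPM in BL/10, and its part in the Prdm1 level was not tested. Of 7 STAT4 targets, Il12rb2 alone passed, and the median was 0.11. Of 7 STAT6 targets tested, 3 were higher and 2 lower. The higher genes were Il4ra, Gata3 and Ccl22, the last named after its values were seen (0.52, SE 0.12, adjusted p = 0.0261 from edgeR, 0.0705 to 0.0899 without any library other than BL/10 replicate 1, and 0.202 with age as a term). Gata3, a T helper cell factor, was higher (0.79, SE 0.20, adjusted p = 0.0342 from edgeR), a call that held only without BL/10 replicate 1 (0.0168) and reached 0.111 otherwise, and 0.324 with age as a term. Retnla and Chil3, secreted products of alternatively activated macrophages, were lower (-3.73 and -1.72, SE 0.72 and 0.30, adjusted p = 0.0124 and 0.00809 from edgeR), and Retnla had an adjusted p of 0.0535 without NOD.B10 replicate 3. Neither passed in edgeR with age as a term (Retnla -2.35, adjusted p = 0.124, and Chil3 -0.96, adjusted p = 0.0569). Chil3 had 122, 173 and 172 CPM in NOD.B10 and 303, 704 and 534 CPM in BL/10. The 10 neutrophil markers were also lower in NOD.B10, at 2140 to 2480 CPM in sum against 6150 to 12900 CPM. Their part in the Chil3 level was not tested. Retnla was counted 65, 93 and 312 times in BL/10 replicates 1, 2 and 3, and without replicate 3 its log2 fold change was -2.81. That library also had the highest summed level of 4 adipocyte markers, at 98 CPM, where BL/10 replicates 1 and 2 had 29.2 and 39.1 CPM and NOD.B10 had 33.8 to 43.2 CPM, and their part in the Retnla level was not tested.

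**Figure D5:**
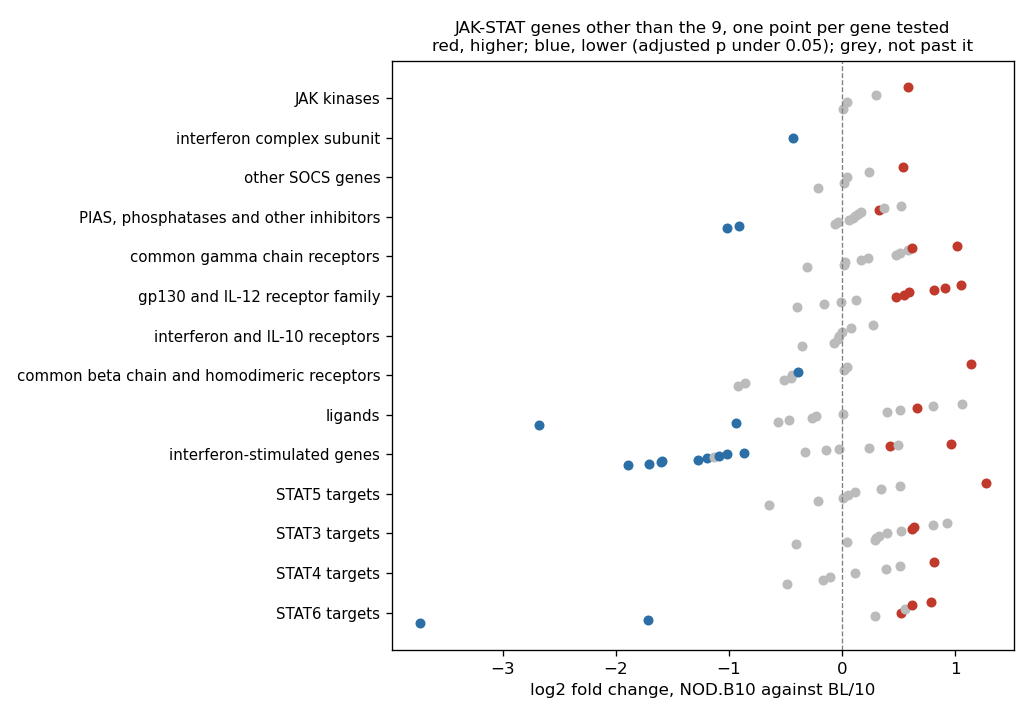
Log2 fold change (NOD.B10 against BL/10) of each tested gene of the pathway lists, with red and blue points for genes higher and lower in NOD.B10 at an adjusted p under 0.05 in edgeR and grey points for the rest. Among the interferon-stimulated genes 9 of 17 points are blue, and among the gp130 and IL-12 receptors 6 of 10 are red. Over all genes tested, 8.22% were lower and 9.11% higher.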

How the data were processed

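Splenic RNA from 3 NOD.B10 and 3 BL/10 females was read as single ends of 50 bases. The deposited values were raw read counts per gene, which the authors made with featureCounts version 1.5.1 on exons of the Ensembl 84 annotation of GRCm38 (file header), without strand and leaving out reads that map to several places or genes. For alignment, the paper names Tophat2 and the submitters' processing notes name HISAT2 version 2.0.5. The table also gives each gene's length, a value without a sample. Strains were taken from the sample descriptions and column names. For BL/10 replicate 3, the column name and the description end differently, so it was matched by library number and strain.

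Symbols matched 47224 of 47729 identifiers (GENCODE M21, GRCm38). Counts were filtered by filterByExpr, normalised by TMM and compared with edgeR 4.0.16 (quasi-likelihood test, limma 3.58.1, R 4.3.3), BL/10 being the reference, and p-values were adjusted by Benjamini-Hochberg over 15330 genes. SEs were derived from the F statistic. On simulated counts of this comparison (15124 genes run), 86 of 100 genes changed by a log2 fold of 1 and 100 of 100 changed by 2 were found, with 19 unchanged genes called. The changed genes were drawn only from those with higher mean counts. Smaller changes and changes in genes with few counts were not simulated. Replicates of a strain differed by more than counting error (chi-square per degree of freedom at least 13.4). The paper calls them biological replicates, with no litter or cage named here.

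The members and lists were chosen with earlier results of these data known. Named pathway genes were the up to 3 per list past the threshold with the largest fold, plus Jak1, Jak2, Jak3, Tyk2, Irf9, Socs2 and Ifi202b. A further gene of that rule is not reported here. Other genes are named as chosen after their values were seen. Ratios within a library were compared by exact permutation tests. Alternatives were DESeq2 1.42.0, other size factors, filters and tests, leaving out blood and pancreas genes, a replicate block, age as a term and leaving out each library, and, added after the values were seen, Stat4 per T cell marker reads and over its unshared exon bases. Promoter sequences are from RefSeq (GRCm38.p6).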

Additional observations from a re-analysis of the deposited data

How the results depend on the processing

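Socs3 kept its direction and its call under all 16 alternatives (log2 fold change 0.89 to 1.11, adjusted p up to 0.0319). Stat3 and Stat4 kept their direction and lost the call in 5 of 16 each, namely with age as a term and in 4 of the 6 fits with a library left out. Cish kept its direction and gained a call in 6 of 16. Stat2, Stat5b, Stat6 and Socs1 kept their direction and were never called, and Stat5a, never called, moved from -0.11 to 0.00 with age as a term. Per T cell marker reads, an alternative added after seeing the data, the log2 fold change of Stat4 was -0.22, against 0.74 in CPM. With age as a term, which leaves 1 BL/10 library at 26 weeks and cannot separate age from the differences between BL/10 libraries, 943 of all genes, 1 of the 9 genes and 10 of the pathway genes passed, against 2656, 3 and 36 without it. At an adjusted p under 0.01 the counts were 1035, 1 and 15. With a library left out, they were 1269 to 4107, 1 to 4 and 22 to 46. The highest of these, 4107 and 4 and 46, were all without BL/10 replicate 1, and the lowest of all genes and pathway genes were without NOD.B10 replicate 1. The other alternatives gave 2067 to 3344, 3 to 4 and 32 to 47. Replicate numbers did not pair the libraries, since the deviations of same-numbered libraries had correlations of 0.02, 0.12 and -0.09. With a replicate block, 2889, 4 and 36 genes passed, and the added gene was Cish (adjusted p = 0.0478 from edgeR). The shift in Stat5b share was 3.77 to 5.45 percentage points, and that of the Cish ratio -0.927 to -0.611, with a library left out. The cause of these changes was not tested. Of 26 ligand genes, 14 had too few counts to be tested.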
